A study of Salmo salar with 16 samples.

Results

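Levels of 3 nuclear estrogen receptor genes of Atlantic salmon were read in 4 tissues, the genes being taken by symbol from the annotation deposited with the counts: esr1 (estrogen receptor 1, the alpha subtype), LOC100136443 (estrogen receptor beta) and LOC100846972 (estrogen receptor beta 2). They are 3 of 81574 genes in the table, and all 3 were among the 37043 genes with enough counts to be tested. The annotation holds 1 more nuclear estrogen receptor, LOC100846971 (estrogen receptor alpha 2), whose values are given beside the others wherever a subtype is said to lead. RNA was sequenced from 4 tissues, with 4 libraries each of liver, ovary, pituitary gland and mid-brain (called brain below). The 4 fish were females of the SALTAS breeding program, 3 years old and sexually immature. None of the groups was treated, and the groups differ only in tissue. The labels do not say which libraries of different tissues came from the same fish, so p-values measure the spread between libraries within tissues. In the main fit all 16 libraries share a spread per gene, so the wide spread in brain also enters pairs without brain.

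Estrogen receptors of the nuclear type are transcription factors that are switched on by binding estradiol, the main female sex steroid. In egg-laying vertebrates the ovary makes estradiol, the liver answers it by producing the egg yolk precursor vitellogenin and egg coat proteins, and the brain and pituitary gland read it as feedback on reproduction. Fish carry several copies of these receptors through rounds of genome duplication, grouped into the alpha and the beta subtypes.

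On the genome build ICSASG_v2, esr1 lies on the plus strand of chromosome 6 from 66958234 to 66981696, with 5 annotated transcripts and 3660 bases of merged exons. LOC100136443 lies on the minus strand of chromosome 15 from 39330440 to 39368639, with 1 transcript and 2657 bases of merged exons. LOC100846972 lies on the minus strand of chromosome 1 from 27760752 to 27793560, with 7 transcripts and 3920 bases of merged exons. LOC100846971 is also on the minus strand of chromosome 15, from 50896523 to 50912787, with 1 transcript and 2012 bases of merged exons. Of these 4 genes, LOC100846972 alone shares exon bases with another gene, 88 bases or 2.25% of its exons, with the nesprin-2-like gene LOC106599102 on the opposite strand. That gene had a mean of 12.8 CPM in brain, 17.7 in pituitary gland, 26.5 in ovary and 19.9 in liver. The receptor had means of 4.38, 34.2, 51.1 and 969 CPM in the same order, so in brain the neighbour was the higher. The part of the shared bases in the counts of the receptor was not tested. CPM are the counts of a gene relative to its library's total, after scaling by edgeR's TMM factors, and FPKM are CPM per kilobase of merged exons, the unit used below to compare genes with each other.

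The libraries held 20638203 to 51858156 counts, the deepest being brain library 2, and the TMM factors were 0.494 to 0.537 in liver against 0.938 to 1.48 in the other tissues. The summed CPM of 10 pituitary hormone genes was 329589 to 422301 in the pituitary libraries and 189 to 650 elsewhere. The 8 liver markers summed to 132232 to 152037 in liver and to 18.7 to 330 elsewhere, and the 8 brain markers to 1062 to 4173 in brain and to 4.68 to 9.89 elsewhere. The paper lists these pituitary, liver and brain markers among its tissue-specific genes from the same libraries, so their separation is no independent check. The 55 ovary markers, mostly egg coat (zona pellucida) genes, summed to 3840 to 4692 in ovary but to 20920 to 24142 in liver. Most of that liver sum came from LOC106573520 (mean 15839 CPM) and LOC100380781 (mean 6667 CPM), zona pellucida proteins of the kind that the liver of fish is known to make, while the remaining listed egg coat genes were at a mean of at most 3.46 CPM in liver.

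The 4 brain libraries did not agree on the receptors, which touches every comparison with brain. In brain libraries 1 to 4, esr1 had 57, 71, 160 and 247 counts, or 1.69, 0.982, 4.73 and 7.53 CPM. LOC100136443 had 7, 12, 178 and 126 counts, or 0.207, 0.166, 5.26 and 3.84 CPM, and LOC100846972 had 62, 56, 289 and 209 counts, or 1.83, 0.774, 8.54 and 6.37 CPM. All 3 genes were thus higher in libraries 3 and 4 than in libraries 1 and 2, with the highest library 7.66 times the lowest for esr1, 31.7 times for LOC100136443 and 11.0 times for LOC100846972. LOC100846971 did not follow them, with 319, 343, 207 and 205 counts, or 9.43, 4.74, 6.12 and 6.25 CPM.

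Other genes moved across the same libraries. In libraries 1 to 4 the brain markers summed to 3817, 4173, 2649 and 1062 CPM and were lowest in libraries 3 and 4. The liver markers summed to 115, 18.7, 330 and 189 CPM, the 35 hemoglobin genes to 147, 50.0, 301 and 198 CPM, and the pituitary hormone genes to 389, 189, 428 and 499 CPM, each higher in libraries 3 and 4 than in the other 2. For the pituitary hormone genes the counts in libraries 1 to 4 were 13155, 13650, 14485 and 16365, a smaller spread than in CPM. Apart from the deepest library, 2, their brain sums were near those of ovary (398 to 580 CPM) and liver (362 to 650 CPM). Among the liver markers, rbp4 had by far the highest brain mean, 103 CPM, against 5.83 CPM in ovary. The next, alb1, was at 18.9 CPM in brain and 20.4 CPM in ovary. The part of these values in the receptor levels was not tested. Brain aromatase (LOC106584746), which makes estradiol in the brain, was at 90.5, 12.6, 144 and 207 CPM. The cytosolic sulfotransferase st1s3 was at 7.16, 5.30, 94.3 and 50.9 CPM, so both were also highest in libraries 3 and 4. The catechol O-methyltransferase-like LOC106566505 did not follow them, at 93.5, 50.2, 67.2 and 46.5 CPM.

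**Figure D1:**
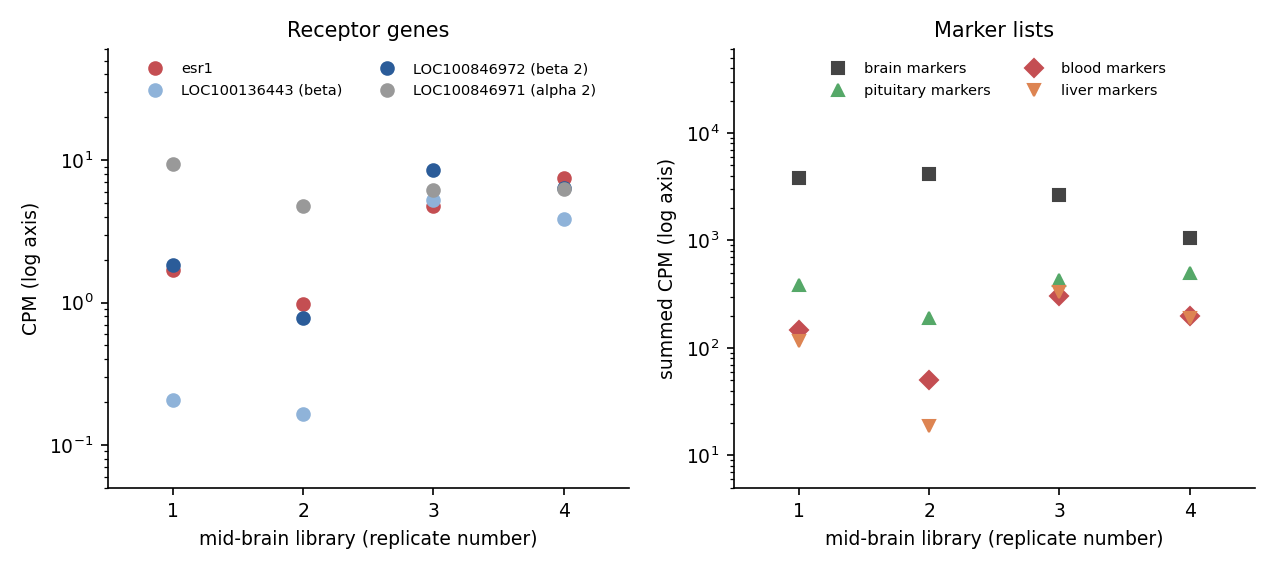
CPM of the 4 nuclear receptor genes (left) and summed CPM of 4 marker lists (right) in each of the 4 mid-brain libraries, both on log axes; each point is 1 library. The 3 genes esr1, LOC100136443 and LOC100846972 are higher in libraries 3 and 4, LOC100846971 is not, and the brain markers fall to 1062 CPM in library 4.

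All 3 receptors were most abundant in liver. esr1 had 6083, 5449, 5224 and 5520 counts in liver libraries 1 to 4, or 559, 470, 474 and 461 CPM, with a mean of 491 ± 45.6 CPM (SD, n = 4). In ovary it had 61.9, 73.1, 68.3 and 65.9 CPM (mean 67.3 ± 4.65), and in pituitary gland 12.2, 14.5, 16.4 and 16.4 CPM (mean 14.9 ± 2.02), against 3.73 ± 3.01 CPM in brain. No library of one tissue overlapped those of another, so the order of esr1 was liver, ovary, pituitary gland, brain in all 16 libraries. In bulk tissue, more cells that express a gene and more RNA per cell cannot be told apart.

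LOC100846972, the beta 2 gene, reached the highest level of any receptor. It had 10267, 11848, 10980 and 10926 counts in the liver libraries, or 944, 1022, 996 and 913 CPM (mean 969 ± 49.5, SD, n = 4). The ovary libraries had 53.4, 51.9, 52.4 and 46.5 CPM (mean 51.1 ± 3.09) and the pituitary libraries 30.6, 35.8, 40.8 and 29.6 CPM (mean 34.2 ± 5.15), while brain had 4.38 ± 3.69 CPM. Its tissues were in the same order as those of esr1 and did not overlap either, although ovary and pituitary gland stood close together.

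LOC100136443, the beta gene, was the least abundant of the 3 in liver, with 944, 1207, 1050 and 1189 counts, or 86.8, 104, 95.2 and 99.3 CPM (mean 96.4 ± 7.37, SD, n = 4). Here the pituitary gland came next, with 8.04, 12.2, 12.9 and 12.1 CPM (mean 11.3 ± 2.22), above the ovary, with 5.41, 5.09, 5.77 and 5.73 CPM (mean 5.50 ± 0.318). Brain, at 2.37 ± 2.58 CPM, overlapped the ovary, because brain library 3 (5.26 CPM) lay above ovary library 2. Every pituitary library of the beta gene thus lay above every ovary library with TMM scaling, but not with plain library totals. Pituitary library 1 (7.54 CPM) then lay below ovary libraries 1, 3 and 4 (7.66, 8.53 and 8.24 CPM).

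LOC100846971, the alpha 2 gene, had its high levels in other tissues. It was highest in brain (mean 6.63 ± 1.99 CPM, SD, n = 4) and in pituitary gland (5.79, 2.89, 5.48 and 4.56 CPM, mean 4.68 ± 1.30). In ovary it had 19, 13, 14 and 16 counts (mean 0.378 ± 0.054 CPM) and in liver 11, 25, 2 and 3 counts (mean 0.900 ± 0.919 CPM). Brain and pituitary libraries overlapped each other, as did ovary and liver libraries, but no brain or pituitary library overlapped any of ovary or liver.

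**Figure D2:**
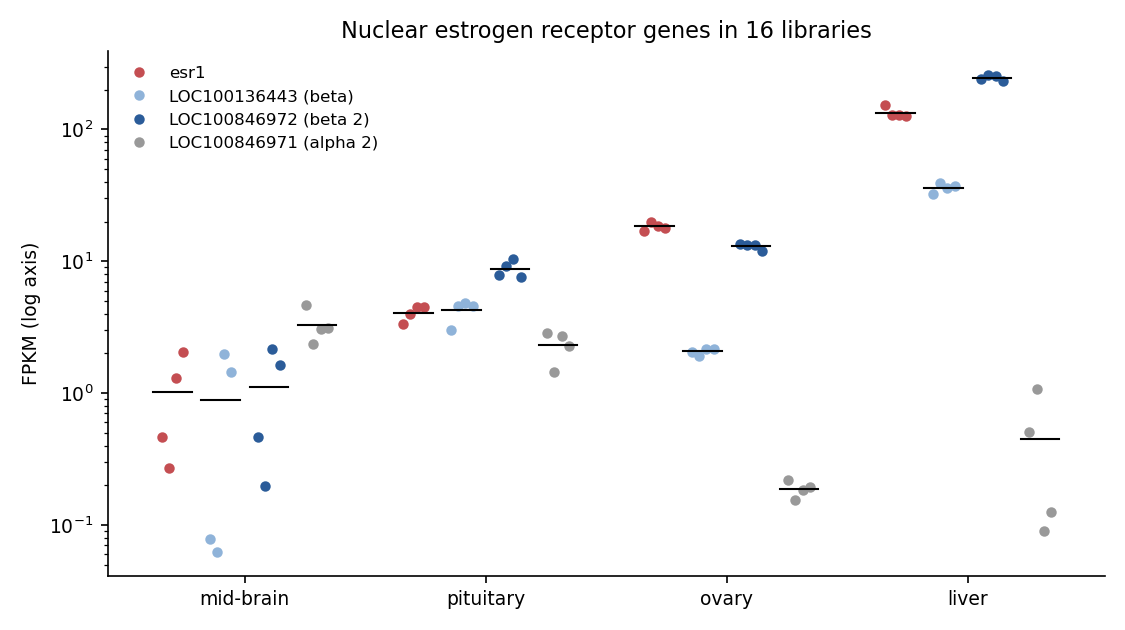
FPKM (log axis) of the 4 nuclear estrogen receptor genes in the 4 libraries of mid-brain, pituitary gland, ovary and liver; each point is 1 library and each black line is the mean of 4. The 3 genes esr1, LOC100136443 and LOC100846972 are highest in liver, where LOC100846972 has a mean of 247 FPKM, and LOC100846971 is highest in brain and pituitary gland.

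Which subtype led depended on the tissue. The levels per length of the 3 genes were added up in each library, and each gene was given as its percent of that sum, a measure that does not depend on how libraries are scaled to each other. The sum itself was 418 ± 14.7 FPKM in liver, 33.5 ± 1.43 in ovary, 17.1 ± 2.33 in pituitary gland and 3.03 ± 2.62 in brain (SD, n = 4 each). Within a tissue the exact paired permutation test of 4 libraries cannot give a two-sided p under 0.12, so the order of the genes is given by counts of libraries and by ranges.

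In liver LOC100846972 led in 4 of 4 libraries, with 59.2% ± 2.02 of the sum, ahead of esr1 with 32.1% ± 2.59 and LOC100136443 with 8.70% ± 0.783. Its level per length was 1.58 to 2.03 times that of esr1 and 6.23 to 7.37 times that of LOC100136443. The 4 livers were thus alike in the makeup of their receptors, and LOC100846971 added at most 0.25% when it was counted too.

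In pituitary gland LOC100846972 again led in 4 of 4 libraries, with 51.2% ± 4.08, and esr1 (23.9% ± 2.14) and LOC100136443 (24.9% ± 2.59) shared the rest. LOC100846972 was 1.68 to 2.35 times as high as esr1 and 1.66 to 2.58 times as high as LOC100136443. esr1 was above LOC100136443 in 1 of 4 libraries, with ratios from 0.86 to 1.1, so with merged exons these neighbours did not differ beyond their spread. This depended on the length used, because esr1 was above LOC100136443 in 4 of 4 pituitary libraries per base of coding sequence (22.6% to 27.6% of the sum against 16.2% to 21.3%) and by raw counts (23.2% to 28.3% against 15.8% to 20.8%). With LOC100846971 in the sum, that gene took 12.1% ± 3.84 and LOC100846972 still led in 4 of 4 libraries with 45.0% ± 3.37. The beta pair together made up the larger part of the 3-gene sum in every pituitary and every liver library.

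In ovary the lead passed to esr1, which had 54.9% ± 2.19 and led in 4 of 4 libraries. LOC100846972 followed with 38.9% ± 2.1, and LOC100136443 had 6.19% ± 0.537. The lead of esr1 over LOC100846972 was small but present in each library, at 1.24 to 1.52 times, whereas esr1 was 8.31 to 10.4 times as high as LOC100136443. LOC100846971 took 0.561% ± 0.0989 when it was included.

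In brain none of the 3 led throughout. esr1 had 40.1% ± 11.8 and LOC100846972 38.9% ± 6.13, each ahead in 2 of 4 libraries, and which had the higher mean changed with the length used. LOC100136443 had 21.0% ± 13.5, ranging from 7.74% to 36.3%. When LOC100846971 was counted as well, it was the highest of the 4 genes in 4 of 4 brain libraries, with 59.4% ± 26.1 of the 4-gene sum and a range from 35.8% to 82.3%. This lead depended on the length used: LOC100846971 has the shortest exons, and it led in 3 of 4 brain libraries per base of coding sequence and in 2 of 4 by raw counts. The brain libraries with little of the other receptors, 1 and 2, were those in which LOC100846971 led under each of these measures.

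**Figure D3:**
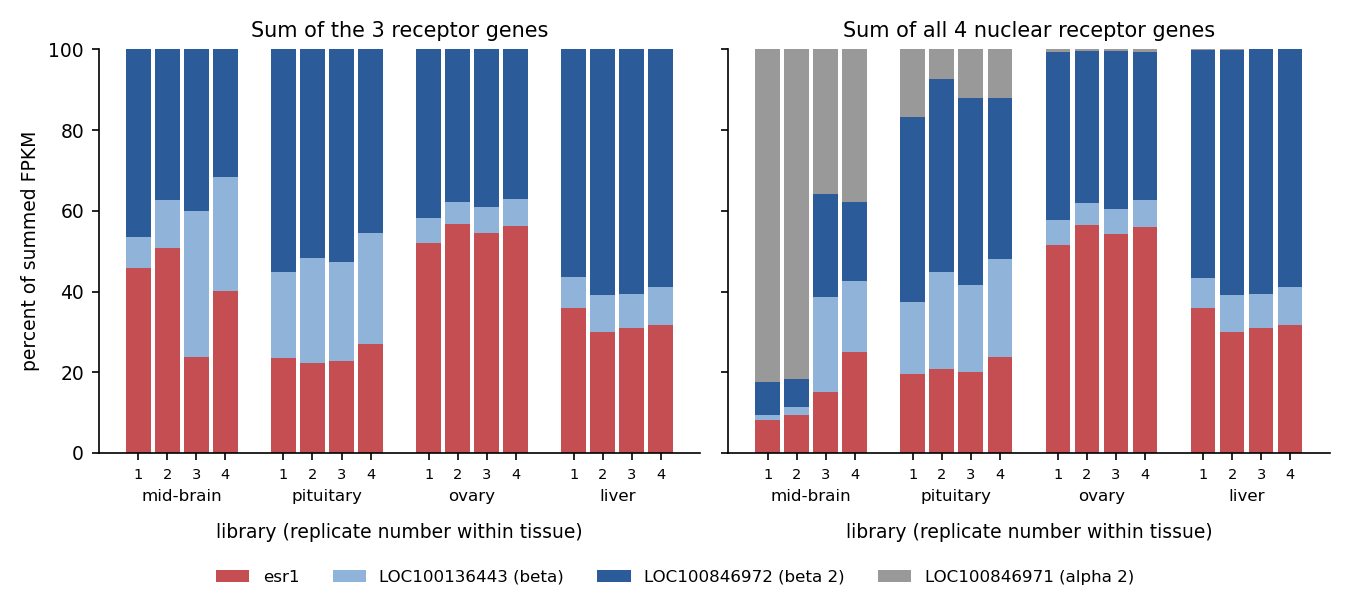
Percent of the summed FPKM taken by each receptor gene in each library, for the 3 genes (left) and for all 4 nuclear receptor genes (right); bars are the libraries 1 to 4 of each tissue. LOC100846972 leads in pituitary gland and liver, esr1 leads in ovary, and LOC100846971 takes 35.8% to 82.3% in brain once it is counted.

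The 3 genes were tested in all 6 pairs of tissues with edgeR's quasi-likelihood test, and a difference was called at a Benjamini-Hochberg adjusted p of at most 0.001 and a fold change of at least 4. Of the 18 tests 14 were called, 6 of 6 for esr1, 5 for LOC100846972 and 3 for LOC100136443. This count has to be read against a high background, because 15.7% of all tested genes were called for brain against pituitary gland, 46.6% for brain against ovary and 32.9% for brain against liver. The share was 41.2% for pituitary gland against ovary, 28.2% for pituitary gland against liver and 40.8% for ovary against liver.

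Liver was higher than each other tissue for all 3 receptors. Against brain, where 10.8% of all genes were called lower than in liver, esr1 was 133-fold higher in liver (log2 fold change, brain minus liver, -7.06, SE 0.52, adjusted p = 7e-09, edgeR). LOC100846972 was 223-fold higher (-7.80, SE 0.62, adjusted p = 1.5e-08, edgeR) and LOC100136443 was 41.6-fold higher (-5.38, SE 0.77, adjusted p = 1.2e-05, edgeR). All 3 were called. With each pair of tissues fitted alone, LOC100136443 lost this call (adjusted p = 0.0018, edgeR).

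Against pituitary gland, where 10.9% of genes were called lower than in liver, the liver was again higher in 3 of 3. esr1 was 33.0-fold higher in liver (log2 fold change -5.04, SE 0.47, adjusted p = 1.3e-07, edgeR) and LOC100846972 28.3-fold higher (-4.82, SE 0.53, adjusted p = 8.8e-07, edgeR). LOC100136443 was 8.51-fold higher (-3.09, SE 0.68, adjusted p = 0.00086, edgeR), close to the threshold, and it lost the call with adjusted p from 0.0015 to 0.0044 when any 1 library of ovary, pituitary gland or liver was left out, always on the same side of 0. With plain library totals its adjusted p was 0.0083, and with the pair fitted alone it was 3.3e-09 (both edgeR).

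Against ovary, where 18.5% of genes were called lower than in liver, LOC100846972 was 19.0-fold higher in liver (log2 fold change -4.25, SE 0.52, adjusted p = 1.6e-06, edgeR), LOC100136443 17.5-fold (-4.13, SE 0.72, adjusted p = 6.8e-05, edgeR) and esr1 7.30-fold (-2.87, SE 0.43, adjusted p = 1.4e-05, edgeR). The size of every difference with liver depended on the scaling. With plain totals in place of TMM the median of all genes moved by 1.48 on the log2 scale between ovary and liver, by 1.4 in the pair of brain and liver and by 0.95 between pituitary gland and liver, the share of called genes that were higher in ovary than in liver went from 54.6% to 81.2%, and esr1 was lower in ovary than in liver by a log2 fold change of -1.39 (adjusted p = 0.0042, edgeR), which is not called. LOC100136443 lost the same call (-2.65, adjusted p = 0.0019, edgeR). The share of calls that were higher in the first tissue went from 67.2% to 87.7% for brain minus liver, from 61.4% to 79.1% for pituitary minus liver, from 68.6% to 80.1% for brain minus pituitary and from 54.1% to 41.3% for pituitary minus ovary. None of the 3 receptors changed direction in any pair.

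Between ovary and the 2 tissues above it in the reproductive axis the 3 genes parted. Ovary was above brain for esr1 by 18.2-fold (log2 fold change, brain minus ovary, -4.19, SE 0.46, adjusted p = 4e-07, edgeR) and for LOC100846972 by 11.8-fold (-3.56, SE 0.51, adjusted p = 8.2e-06, edgeR), where 19% of all genes were called lower in brain. LOC100136443 was not called (-1.25, SE 0.67, adjusted p = 0.097, edgeR). The call of LOC100846972 was lost with the pair fitted alone (adjusted p = 0.0014, edgeR). Against pituitary gland, where 18.9% of genes were called higher in ovary, esr1 alone was called, 4.52-fold higher in ovary (log2 fold change, pituitary minus ovary, -2.18, SE 0.42, adjusted p = 0.00018, edgeR). LOC100846972 had a difference of -0.58 (SE 0.46, adjusted p = 0.26, edgeR) and LOC100136443 one of 1.04 in the opposite direction (SE 0.65, adjusted p = 0.15, edgeR), neither of them called. With the pair fitted alone they were -0.42 (adjusted p = 0.003, edgeR) and 1.20 (adjusted p = 1.9e-05, edgeR), both still under a fold of 4. Without pituitary replicate 1 the call of esr1 was lost (-2.1, adjusted p = 0.001, edgeR, just above the threshold before rounding).

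Pituitary gland was above brain for LOC100846972 by 7.88-fold (log2 fold change, brain minus pituitary, -2.98, SE 0.50, adjusted p = 0.00012, edgeR) and for esr1 by 4.03-fold (-2.01, SE 0.42, adjusted p = 0.00088, edgeR), in a pair where 4.91% of all genes were called lower in brain. LOC100136443 had a difference of -2.29 (SE 0.68, adjusted p = 0.01, edgeR) and was not called. With the pair fitted alone LOC100846972 lost its call (adjusted p = 0.006, edgeR). The value of esr1 sat at both thresholds, and it kept its call without brain replicate 4 but lost it without any other single library, with differences from -2.18 to -1.68. It also lost it with plain totals (-1.59, adjusted p = 0.0035, edgeR), with the pair fitted alone (adjusted p = 0.018, edgeR), and with DESeq2 size factors or DESeq2 itself, where the fold fell just under 4. Without brain replicates 3 and 4 the differences between brain and pituitary gland were -3.44 for esr1, -5.85 for LOC100136443 and -4.70 for LOC100846972. Those between brain and ovary were then -5.57, -4.76 and -5.23, and those between brain and liver -8.41, -8.87 and -9.45, in the same order of genes. Since these libraries were left out for their receptor levels, the values describe the other 2 brain libraries and carry no test. LOC100136443 moved most, because libraries 1 and 2 held only 7 and 12 of its counts.

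In brain and in pituitary gland LOC100846971 was above its level in liver, whereas the other 3 were below theirs. It was higher in brain than in ovary by 17.3-fold (log2 fold change 4.12, SE 0.53, adjusted p = 2.7e-06, edgeR) and than in liver by 7.33-fold (2.87, SE 0.53, adjusted p = 0.00014, edgeR). It was also higher in pituitary gland than in ovary by 12.2-fold (3.61, SE 0.53, adjusted p = 1.1e-05, edgeR) and than in liver by 5.18-fold (2.37, SE 0.52, adjusted p = 0.00084, edgeR). It was not called between brain and pituitary gland (0.50, SE 0.46, adjusted p = 0.37, edgeR) or between ovary and liver (-1.24, SE 0.55, adjusted p = 0.05, edgeR). With plain library totals its mean was 0.544 CPM in ovary and 0.459 CPM in liver, so the direction of that last difference turns with the scaling. The background for these 4 calls was 27.6%, 22.1%, 22.3% and 17.3% of all genes, in the same order.

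**Figure D4:**
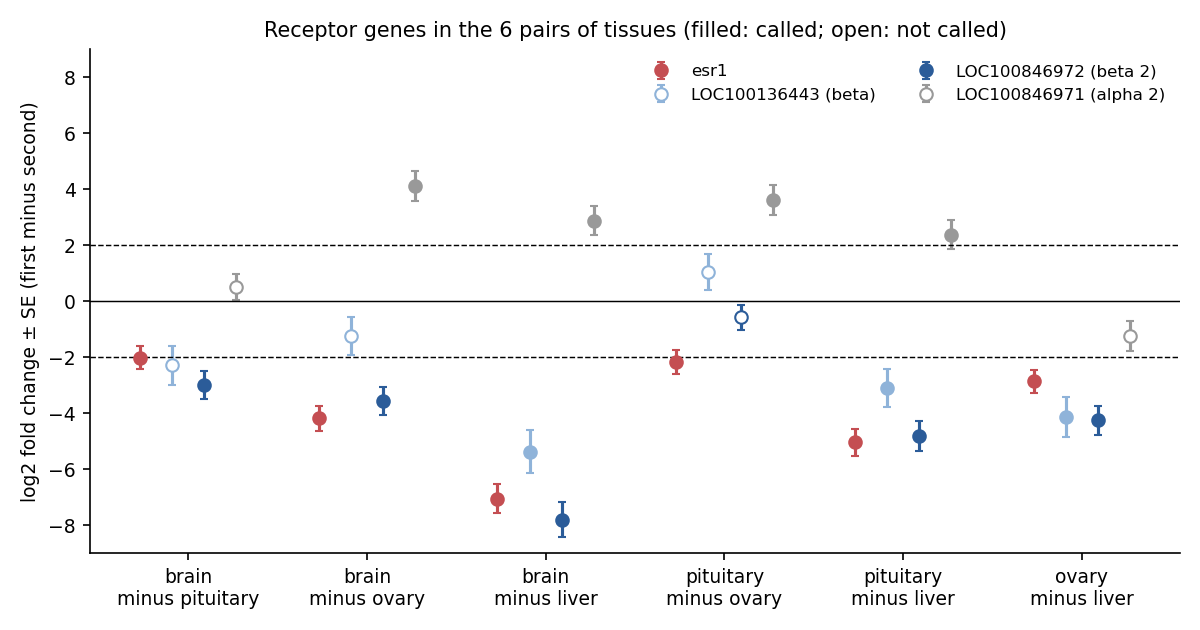
Log2 fold change with its standard error for the 4 nuclear receptor genes in the 6 pairs of tissues, as the first tissue minus the second; filled points were called, open points were not, and dashed lines mark a fold of 4. Values of esr1, LOC100136443 and LOC100846972 are negative in every pair with liver as the second tissue, and those of LOC100846971 are positive for brain and pituitary gland against ovary and liver.

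Across the 16 libraries, on log2(CPM + 0.5), esr1 and LOC100846972 followed each other with Pearson's r = 0.97 and Spearman's rho = 0.96. LOC100136443 had r = 0.96 and rho = 0.77 with LOC100846972, and r = 0.88 and rho = 0.74 with esr1. LOC100846971 had negative values with all 3, with r from -0.79 with esr1 to -0.48 with LOC100136443. The points are libraries of 4 tissues, so these values describe the tissue pattern above and are given without a test.

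The genes whose pattern was closest were looked for among 33204 genes with at least 1 CPM in at least 4 libraries, by Pearson's r over the 16 libraries. For esr1 they were LOC106588626 (phosphatase and actin regulator 4A-like, r = 0.99), LOC106585757 (arrestin domain-containing protein 3-like), LOC106567632 (calcium uptake protein 2, mitochondrial-like), LOC106568356 (fructose-1,6-bisphosphatase 1-like) and LOC106583647 (ral GTPase-activating protein subunit beta-like), the last with r = 0.99 as well. LOC106568356, named for an enzyme of glucose synthesis, had means of 1.38 CPM in brain, 7.24 in pituitary gland, 61.2 in ovary and 673 in liver, a wider span than that of esr1, whereas LOC106583647 went only from 29.5 to 119 CPM. For LOC100136443 they were LOC106573631 (zinc finger CCHC domain-containing protein 14-like, r = 0.99), abhd12, LOC106586686 (butyrophilin subfamily 2 member A2-like), LOC106561353 (lysine-specific demethylase 7B-like) and LOC100194714 (tumor protein p53-inducible nuclear protein 2, r = 0.98). Of these, abhd12 had means of 12.1 CPM in brain, 28.4 in pituitary gland, 25.6 in ovary and 214 in liver. For LOC100846972 they were LOC106578586 (cytochrome b5-like, r = 0.98), LOC106575472 (disintegrin and metalloproteinase domain-containing protein 9-like), LOC106586532 (LIM and senescent cell antigen-like-containing domain protein 1), LOC106575720 (elongation factor 1-beta-like) and prps2 (ribose-phosphate pyrophosphokinase 2, r = 0.98).

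The other genes of estrogen signalling were taken from lists set by product name, 134 genes in all. Of these 113 were tested and 90, or 79.6%, were called in at least 1 of the 6 pairs, against 71.1% of all tested genes. The lists were matched on names alone, so that the coactivator list also holds CITED, TAF-type and other proteins that bind p300 or nuclear receptors, and the steroid receptor list holds the membrane protein pgrmc2.

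The enzymes that make estradiol split by tissue. Of the 5 tested, 4 were called higher in ovary than in each of the other 3 tissues, against 19% of all genes for brain, 18.9% for pituitary gland and 22.3% for liver. The remaining 1, brain aromatase, was called higher in brain than in ovary and liver, against 27.6% and 22.1% of all genes. It was also called higher in pituitary gland than in ovary and liver, against 22.3% and 17.3%. Aromatase turns androgens into estrogens. The aromatase-like LOC106587170 was at 8.46 ± 2.65 CPM in ovary (SD, n = 4) and at most 0.13 CPM on average in the other tissues. Brain aromatase was at 185 ± 48.4 CPM in pituitary gland, 113 ± 82.4 in brain, 0.49 in ovary and 1.30 in liver. LOC106607392 and LOC106601030, which are like the dehydrogenase that turns estrone into estradiol, were at 39.8 ± 6.02 and 19.3 ± 2.1 CPM in ovary, where esr1 led among the receptors, and at most 1.03 CPM on average elsewhere.

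Of 9 tested genes of the estrogen breakdown list, 6 were called lower in ovary than in liver, against 18.5% of all genes. In pituitary gland 6 were called lower and 2 higher than in liver, against 10.9% and 17.3% of all genes, and in brain 5 lower and 2 higher, against 10.8% and 22.1%. The sulfotransferase 1C2-like LOC106579067 was at 51.1 ± 3.41 CPM in liver and 1.95 to 3.31 CPM on average in the other tissues. st1s3, a sulfotransferase, was the reverse, at 110 ± 16.5 CPM in pituitary gland and 39.4 ± 42.2 in brain against 3.24 in liver and 0.64 in ovary. The list's most abundant liver gene, LOC106577197 (152 ± 24.1 CPM), is a catechol O-methyltransferase domain-containing protein, for which no action on estrogens is assumed here.

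The carrier of sex steroids in blood, the sex hormone-binding globulin-like gene LOC106577549, was a liver gene, with 1188, 2049, 1736 and 1537 CPM in liver and means of 0.96 to 1.84 CPM elsewhere. It was called lower than in liver in brain (log2 fold change -9.81, SE 0.52, adjusted p = 1.6e-10), pituitary gland (-10.72, SE 0.55, adjusted p = 1.1e-10) and ovary (-10.14, SE 0.53, adjusted p = 6.2e-11), all by edgeR.

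The membrane receptors for estrogen were, as LOC100846971 was, higher in brain and pituitary gland than in ovary and liver. LOC106607359 (G-protein coupled estrogen receptor 1) had 8.52, 7.79, 12.4 and 1.69 CPM in pituitary gland and 2.16 ± 0.504 CPM in brain, against at most 2 counts in any ovary or liver library. LOC106601100 (G-protein coupled estrogen receptor 1-like) had 6.12, 5.57, 10.1 and 0.919 CPM in pituitary gland and 3.51 ± 1.22 CPM in brain, against 0.36 in ovary and 0.16 in liver. Pituitary library 4 was the lowest of its tissue for each of these genes. Both were called higher in brain than in ovary and liver, against 27.6% and 22.1% of all genes. In pituitary gland both were also called higher than in ovary and liver, against 22.3% and 17.3%. Neither was called between brain and pituitary gland or between ovary and liver, pairs in which 15.7% and 40.8% of all genes were called. For brain minus pituitary gland the log2 fold change of LOC106607359 was -1.82 (SE 0.51, adjusted p = 0.0068, edgeR), short of both thresholds. That of LOC106601100 was -0.70 (SE 0.57, adjusted p = 0.31, edgeR). The gene with the symbol gper1 had at most 13 counts in any library and was not tested.

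Cofactors and chaperones differed from gene to gene. Of 41 tested genes of the coactivator list, which holds proteins that help receptors switch genes on, 26 were called between ovary and liver, 14 higher in ovary and 12 higher in liver, against 22.3% and 18.5% of all genes. The nuclear receptor coactivator 3-like LOC106571934 was highest in liver, at 208 ± 25.8 CPM, against 38.6 ± 4.53 in pituitary gland, 16.7 ± 4.58 in brain and 9.29 ± 2.04 in ovary. The mediator subunit 1-like genes LOC106588654 and LOC106588604, both on chromosome 27, were at 628 ± 100 and 380 ± 79.4 CPM in ovary and at most 5.72 CPM on average elsewhere. Of 8 tested corepressors, 4 were called higher in liver than in ovary, against 18.5% of all genes, and 1, the prohibitin-2-like LOC106568660 (171 ± 3.58 CPM in ovary, 21.9 ± 1.73 in liver), the other way. ncor1, a corepressor that binds receptors without hormone, was at 473 ± 71.0 CPM in liver against 117 ± 2.30 in pituitary gland, 55.5 ± 4.45 in ovary and 52.0 ± 7.15 in brain. Among 10 chaperones of the HSP90 system, which hold steroid receptors ready for hormone, hs90b was at 835 ± 92.0 CPM in liver and 186 to 336 CPM on average elsewhere. hs90a had the opposite place, at 162 ± 36.8 CPM in brain and 183 ± 27.1 in pituitary gland against 5.69 in ovary and 4.57 in liver.

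The pioneer factors of the forkhead box A family, which open chromatin for estrogen receptor alpha in mammalian cells, were most abundant in liver, as the 3 receptors were. All 7 tested were called lower in pituitary gland and in ovary than in liver, against 10.9% and 18.5% of all genes, and 4 of 7 lower in brain than in liver, against 10.8%. In brain 6 of 7 were called higher than in ovary, against 27.6% of all genes, and 3 of 7 higher than in pituitary gland, against 10.7%. The 3 receptors, by contrast, had their lowest means in brain. The forkhead box protein A2-like LOC106612699 was at 147 ± 29.8 CPM in liver and at most 0.58 CPM on average elsewhere. foxa1 was at 33.9 ± 4.55 CPM in liver and had 0 counts in all 4 pituitary libraries, where esr1 was at 14.9 CPM. In ovary, with esr1 at 67.3 CPM, neither LOC106612699 nor foxa1 exceeded 0.12 CPM on average. Binding of the receptors or of these factors to chromatin was not measured, so a link between their levels was not tested.

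Among the known liver targets of estradiol, 3 of 4 tested genes were called higher in liver than in each other tissue, against 10.8% of all genes for brain, 10.9% for pituitary gland and 18.5% for ovary. Vitellogenin (LOC100136426) was at 18441, 23328, 30200 and 53596 CPM in liver libraries 1 to 4 and at 10.5 to 21.8 CPM on average in the other tissues. The vitellogenin-like LOC106613448 was at 111, 213, 267 and 1160 CPM in liver and at most 0.14 on average elsewhere, and the eggshell protein LOC100136930 at 819, 746, 748 and 1101 CPM in liver and at most 0.40 elsewhere. All 3 were thus highest in liver library 4, in which the 3 receptors were at 461, 99.3 and 913 CPM, the lowest liver value for esr1 and for LOC100846972. For esr1 that place depended on the scaling. With plain library totals esr1 had 248 CPM in library 4, above libraries 2 and 3 (235 and 234). LOC100136443 was then highest in library 4 (53.3 CPM), and LOC100846972 was still lowest there, at 490 CPM against 492 in library 3. The eggshell protein 1-like LOC106564191 was at 0.36 to 0.54 CPM in all 4 tissues and was not called in any pair.

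The related receptors that do not bind estradiol had other patterns. Of 10 tested estrogen-related receptors, 8 were called higher in brain than in ovary, against 27.6% of all genes, and 8 higher in brain than in liver, against 22.1%. None was called lower in brain, against 4.91% of all genes for pituitary gland, 19% for ovary and 10.8% for liver. At these shares few of 10 genes would be called. Among them, the ERR1-like LOC106563479 was at 30.9 ± 6.15 CPM in liver, 16.7 ± 2.25 in brain, 11.6 ± 1.58 in pituitary gland and 2.92 ± 0.47 in ovary, and the ERR2-like LOC106611051 at 12.0 ± 5.94 CPM in brain and at most 0.05 on average elsewhere. Of 15 tested receptors for other steroids, 7 were called lower in ovary than in liver and none higher, against 18.5% and 22.3% of all genes. The androgen receptor-like LOC106604267 was at 66.2 ± 9.98 CPM in liver, 23.1 ± 4.52 in brain, 21.1 ± 2.96 in pituitary gland and 13.0 ± 1.14 in ovary, a much smaller span than that of the 3 estrogen receptors. The androgen receptor-like LOC106611952 was also highest in liver, at 33.4 to 35.0 CPM. A further androgen receptor-like gene, LOC106567785, was not, at 25.9 to 32.0 CPM in pituitary gland and 23.2 to 26.6 in ovary. It had 12.5 to 26.1 CPM in liver and 0.761 to 4.23 in brain.

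**Figure D5:**
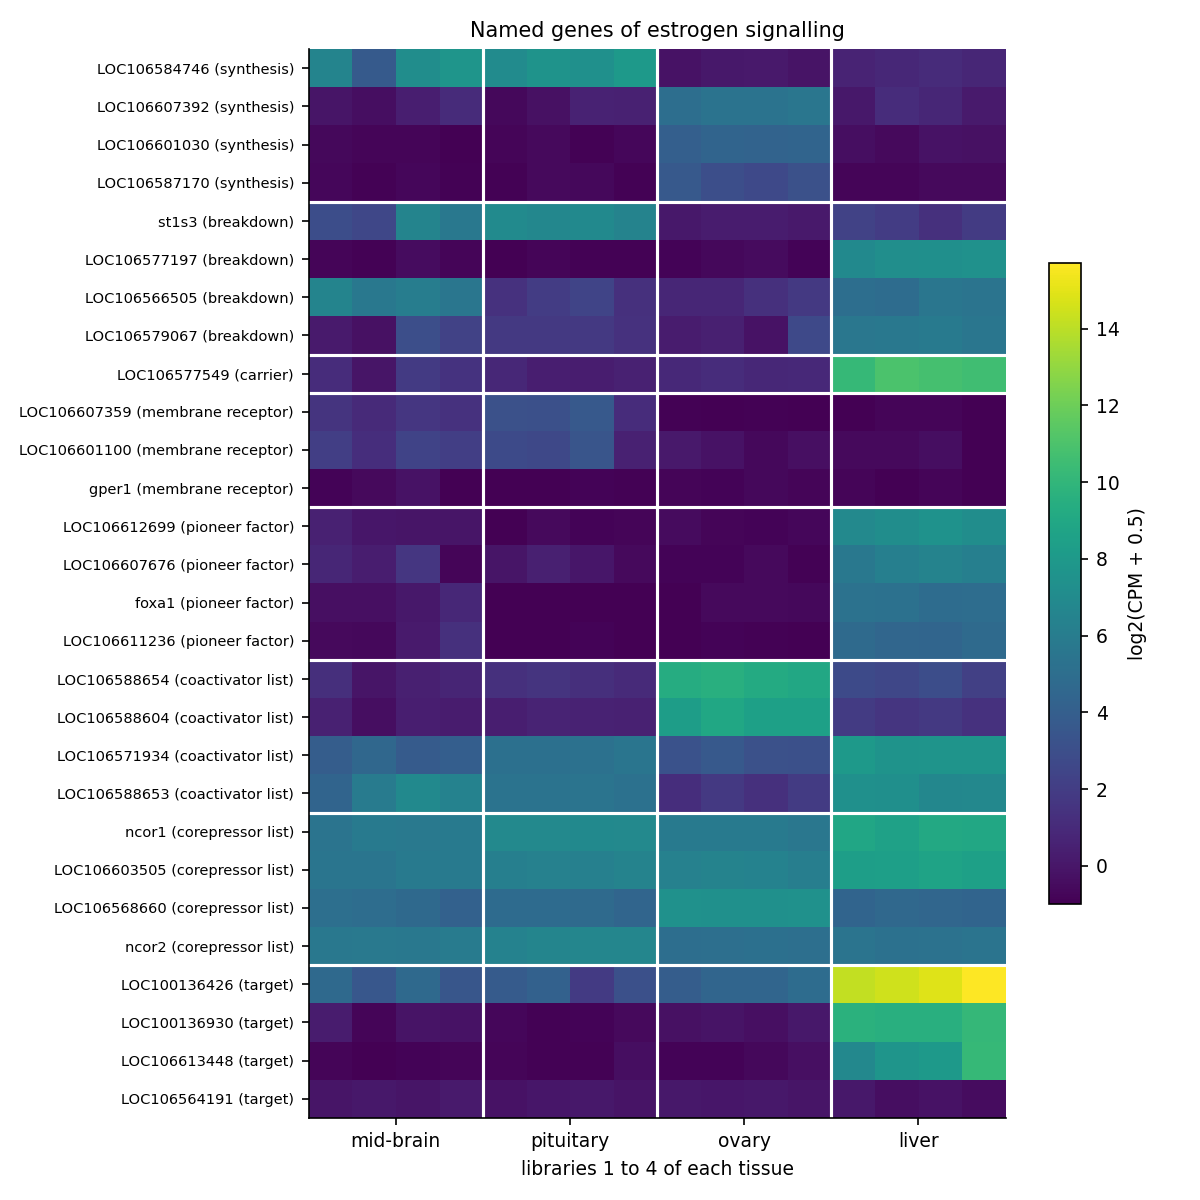
Log2(CPM + 0.5) of named genes of estrogen signalling (rows, with the list each belongs to) in the 16 libraries (columns, libraries 1 to 4 of each tissue). Carrier and pioneer factor genes are bright in liver, as are the target genes except the eggshell protein 1-like LOC106564191. Brain aromatase LOC106584746 is bright in brain and pituitary gland, and the other synthesis genes are brightest in ovary.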

How the data were processed

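RNA from 4 tissues, 4 libraries each, was sequenced by the authors on a stranded Illumina kit, mapped with TopHat2 to ICSASG_v2 and counted with HTSeq. The deposited values are raw counts of uniquely mapped reads on exons per gene, without normalization. The strand setting of the counting is not given in the sources used here, and reads that map equally well to several paralogs were not counted, an effect on the receptors that was not tested. The deposited centered log2 table was not used. Genes and exon lengths came from the deposited annotation, and names from RefSeq (Ssal_v3.1) were matched for 44360 genes by gene ID.

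Genes kept by filterByExpr (37043 of 81574, of which 34077 had no count) were fitted in R 4.3.3 with edgeR 4.0.16, TMM factors and glmQLFit over all 16 libraries, with a mean per tissue. Each pair was tested with glmQLFTest and Benjamini-Hochberg adjustment over all tested genes, and called at the authors' thresholds. Scripts were tested on simulated data. Totals were 20638203 to 51858156 counts, and 3 counts, the limit that a count of 0 allows, correspond to 0.0415 to 0.276 CPM. Tables were made in Python 3.11.15. Alternatives were DESeq2 1.42.0, other scalings and filters, other gene lengths, pairs fitted alone, a replicate block and leaving out libraries.

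The members and lists were chosen with earlier results of these data known. The text names the 3 receptors, every listed alpha 2, membrane receptor and carrier gene, the 4 most abundant members of each other list (fewer are printed) and the 5 genes most like each receptor. LOC106573520 and LOC100380781 were named after their values were seen.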

Additional observations from a re-analysis of the deposited data

Results flagged for a closer look

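In 2 of 16 sets of 4 libraries (4 receptor genes in 4 tissues) 1 library stood apart from the other 3, by a gap large against the range of the set (Dixon's criterion). About 1 in 20 sets does so by chance. The first is esr1 in liver, where library 1 had 559 CPM against 461 to 474 in the others, a gap of 0.87 of the range. The second is LOC100136443 in pituitary gland, where library 1 had 8.04 CPM against 12.1 to 12.9, a gap of 0.83 of the range. Both rest on TMM scaling, because neither set meets the criterion with plain library totals. Library 1 then had 295 CPM against 234 to 248 for esr1, and 7.54 CPM against 12.0 to 13.6 for LOC100136443. The spread of esr1, LOC100136443 and LOC100846972 over the brain libraries, given above, did not meet this criterion because 2 libraries lay on each side.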

How the results depend on the processing

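None of the 18 differences of the 3 receptors changed direction under the alternatives run, and single list genes were not run under them. The count of 14 called tests of 18 was 10 with plain library totals and with each pair fitted alone, 13 with DESeq2 size factors, with the DESeq2 Wald test and with the replicate block, 14 without a filter on low counts, 15 at an adjusted p of at most 0.05 with no fold limit, 16 without brain replicates 3 and 4 (chosen after seeing the data) and 11 to 14 when single libraries were left out. DESeq2 size factors moved the median of all genes by 0.21 on the log2 scale for brain minus ovary, 0.15 for pituitary minus ovary and -0.19 for ovary minus liver, and plain totals moved it by 0.45 for brain minus pituitary and -0.53 for pituitary minus ovary. The replicate numbers are shared by the tissues, but the labels do not tie them to a fish. Same-numbered libraries of different tissues had correlated deviations of -0.0024 to 0.158, over 0.1 in 10 of 24 pairs. Their mean was 0.087, against -0.029 for libraries with different numbers. Of 48 comparisons 42 correlated best with their own number, a hint of shared fish from the data only, which the main fit does not use. The block turned off 1 call, LOC100136443 between pituitary gland and liver (adjusted p = 0.001 after rounding, edgeR), and 88 list genes were then called in some pair, against 90.

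The leading shares moved with the gene length used. LOC100846972 had 51.2% in pituitary gland with merged exons, 56.8% with coding sequences, 56.6% with raw counts and 45.0% in the sum over 4 genes. In liver it had 59.2%, then 62.7% with coding sequences and 62.2% with raw counts. esr1 in brain fell from 40.1% to 14.4% in the sum over 4 genes. In the brain the higher mean share passed from esr1 to LOC100846972 (38.9% with merged exons) with the longest transcript (40.3% against 39.6%), coding sequences (43.2% against 40.3%) and raw counts (42.9% against 41.1%). The sum over 4 genes was also added after seeing the data. With 4 libraries a tissue and 7 to 12 counts in 2 brain libraries, the level of LOC100136443 in brain is the least certain value.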
